A study of Mus musculus with 6 samples.

Results

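The regions described here are the 6 short stretches of the mouse autosomes that were nearly unmethylated in bone marrow before culture and after 4 days of culture and that stood at 10% or more in both libraries made after 7 days. They were chosen by level. Runs of 3 or more listed cytosines, with no gap above 100 bp between neighbours, were taken as regions on chromosomes 1 to 19 of the mm9 build. Each had at least 20 reads summed over its cytosines in every library. Its level, the methylated reads as a percent of all reads, was below 5% in each of the 4 day 0 and day 4 libraries and 10% or more in each of the 2 day 7 libraries. Of 69246 regions in all, 31568 autosomal ones had 20 reads in each library. Of these, 14416 were below 5% in the day 0 and day 4 libraries and are called low regions here, and 6 of the 14416, or 0.0416%, met the whole rule. Since the levels chose the 6 regions, their levels are a description and carry no test.

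DNA methylation was read by reduced representation bisulfite sequencing in cells from C57BL/6J mice, all labelled male, in 3 groups of 2 libraries. The day 0 group was uncultured bone marrow (replicates 2 and 3). The day 4 group (replicates 1 and 2), labelled common myeloid progenitors, and the day 7 group (replicates 1 and 4), labelled bone marrow derived dendritic cells, came from marrow grown in medium with supernatant of an SP2/0 line transfected to secrete Flt3L, the cytokine under which dendritic cells develop. At day 4 and day 7 all live cells were used, without a sort, so a level is a mean over mixed cells. The labels do not say whether the libraries of one day stem from different mice or cultures, and the p-values cover the spread between these libraries alone, which may be technical. The cell types were not checked against markers, because no mm9 gene annotation was used here.

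In mammals methyl groups sit mainly on cytosines followed by guanine. Most such sites are methylated, while dense clusters of them, the CpG islands that often hold promoters, are mostly kept free of methylation in all cell types. Enzymes of the Dnmt3 family can place methyl groups on unmethylated DNA, Dnmt1 copies them at division, and Tet enzymes begin their removal. Bisulfite turns unmethylated cytosine into uracil, which is read as T, and leaves methylated cytosine as C. A cytosine that escapes conversion is therefore read as methylated. Mitochondrial DNA, which is taken to carry little methylation, gives a measure of that background in each library.

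The day 7 libraries stood apart in ways that bear on any level near zero. The 31 listed mitochondrial cytosines stood at 0.547% and 0.490% in the day 0 libraries, 1.17% and 0.664% in the day 4 libraries, and 2.27% and 1.76% in day 7 replicates 1 and 4. Both day 7 values lay above all 4 others. The group means were 0.519% ± 0.0406, 0.919% ± 0.361 and 2.02% ± 0.362 (SD, n = 2 each), with an exact two-sided permutation p of 0.33 for day 7 against either earlier day, the smallest that 2 libraries against 2 can give. Day 7 replicate 4 was also the shallowest library, with 3641141 reads at listed cytosines against 6736556 to 10242334 in the others. Reads per X cytosine over reads per autosomal cytosine were 1.01 and 1.07 at day 7, against 0.651 to 0.688 at day 0 and day 4. Unplaced Y sequence took 37.6 and 35.8 of each 1000000 autosomal reads in the day 7 libraries, against 56.2 to 71.1 in the earlier ones. The part of these differences in the results below was not tested.

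Low regions as a whole stayed near that background at day 7. Their median level was 1.80% and 1.24% in day 7 replicates 1 and 4, and their summed reads gave 2.02% and 1.76%, against mitochondrial levels of 2.27% and 1.76% in the same libraries. The summed reads gave 0.671% and 0.883% at day 0 and 0.888% and 0.730% at day 4, values that the rule held below 5% region by region. In replicate 1, 70 low regions (0.486%) reached 10%, and in replicate 4 it was 180 (1.25%). The 6 regions that reached it in both are 8.57% of the 70 and 3.33% of the 180. No low region reached 15% in both day 7 libraries.

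**Figure D1:**
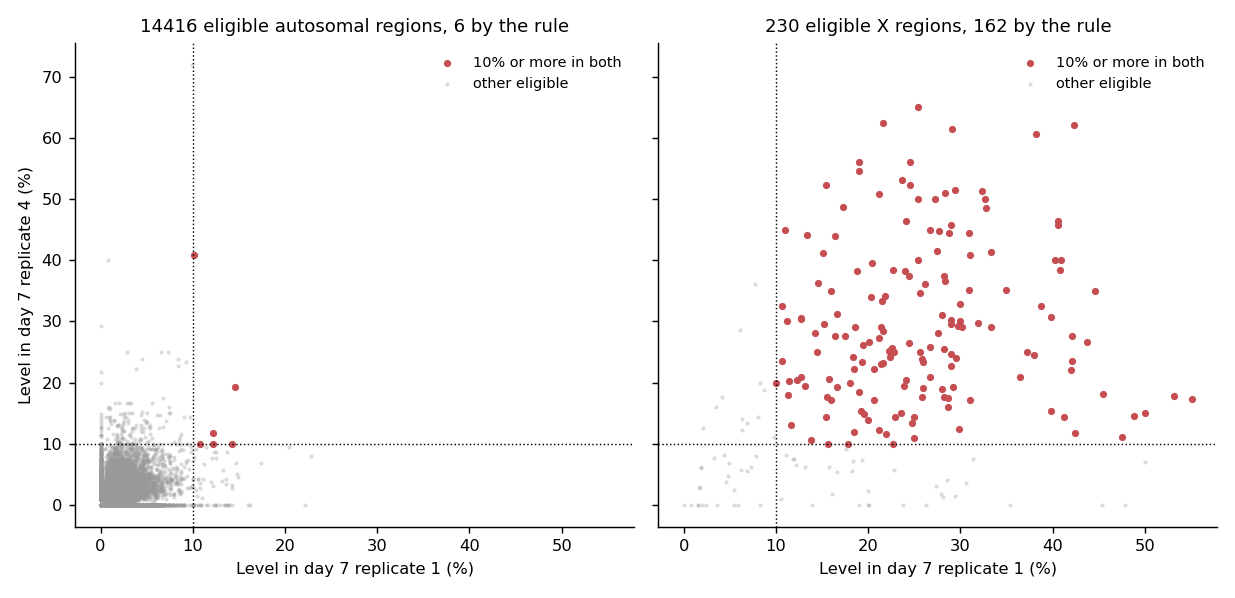
Level in day 7 replicate 1 (horizontal, percent) against day 7 replicate 4 (vertical, percent) for the low regions of the autosomes (left) and of the X chromosome (right), with dotted lines at 10% and red points for regions at 10% or more in both. On the autosomes 6 of 14416 regions lie in the upper right field, and on the X chromosome 162 of 230.

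The same rule with another stage as the raised one found still fewer regions, but the stages were not matched in read number or background. Over the low regions the median read number was 162 and 126 in the day 0 libraries and 165 and 105 in the day 4 libraries. In day 7 replicates 1 and 4 it was 127 and 52, and the mitochondrial level was higher at day 7. The part of these differences in the counts was not tested. With day 0 as the raised stage, 0 of 12715 autosomal regions that were below 5% in the 4 other libraries stood at 10% or more in both day 0 libraries. With day 4 as the raised stage, 1 of 12773 regions (0.00783%) did. It lies on chromosome 7 from 52793710 to 52793824 (7 cytosines), at 1.79% and 0.800% in the day 0 libraries, 11.2% and 10.4% in the day 4 libraries, and 3.28% and 2.44% in the day 7 libraries. On the X chromosome the rule with day 7 raised took 162 of 230 low regions, or 70.4%, where the X reads also stood apart as given above. All libraries are labelled male, yet X reads were higher and Y reads lower at day 7 than in the earlier libraries. Whether the groups had the same number of X copies was not tested, so the X counts given here and below are not read as a gain in culture.

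The 6 regions lay on 6 different chromosomes, and 0 of them lay within 2000 bp of another. They are given in order of their mean day 7 level.

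The highest mean belonged to a stretch of chromosome 19 from 11166934 to 11166987, with 11 cytosines in 54 bp. It had 0 methylated of 154 reads in day 0 replicate 2, which allows a level of up to 1.95%, and 1 of 94 (1.06%) in replicate 3. At day 4 it had 0 of 51, which allows up to 5.88%, and 1 of 66 (1.52%). The 154 reads were 14 at each cytosine, and the 51 were 4 to 6 at each. A read that spans several cytosines is counted at each, so the true limits, here and below, are higher. At day 7 the region had 11 of 109 (10.1%) in replicate 1 and 9 of 22 (40.9%) in replicate 4. Both day 7 values lay above the 4 others, but they lay far apart from each other, at a mean of 25.5% ± 21.8 at day 7 against 0.532% ± 0.752 at day 0 (SD, n = 2 each). The 22 reads of replicate 4 were 2 reads at each of the 11 cytosines, and 9 of the 11 had 1 methylated read of 2. Whether 1 sequenced read carried all 9 cannot be told from these counts. In replicate 1, where 9 or 10 reads covered each cytosine, 8 of the 11 had 1 or 2 methylated reads.

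The second highest, on chromosome 3 from 153996497 to 153996544, held 3 cytosines in 48 bp and came closest of the 6 to the 5% ceiling at day 4. It had 0 of 57 and 0 of 53 methylated reads at day 0, which allow up to 5.26% and 5.66%, and 2 of 72 (2.78%) and 1 of 23 (4.35%) at day 4. At day 7 it had 6 of 41 (14.6%) and 5 of 26 (19.2%), a mean of 16.9% ± 3.25 against 0% at day 0 (SD, n = 2). The first cytosine held 7 of the 11 methylated reads of day 7, with 3 of 13 in replicate 1 and 4 of 10 in replicate 4. The last, 47 bp further on, had 2 of 15 and 0 of 6. Methylated reads at day 7 thus lay mainly at 1 of the 3 cytosines.

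On chromosome 4, the region from 12067811 to 12067836 held 5 cytosines in 26 bp, the shortest of the 6. It had 0 of 30, which allows up to 10%, and 1 of 50 (2.00%) methylated reads at day 0. That limit reaches the day 7 threshold. At day 4 the region had 0 of 65 and 0 of 45, which allow up to 4.62% and 6.67%. At day 7 it had 5 of 35 (14.3%) and 2 of 20 (10.0%). The day 7 mean was 12.1% ± 3.03 against 1.00% ± 1.41 at day 0 (SD, n = 2 each). The lower day 7 value rests on 2 methylated reads, at 2 cytosines covered by 4 reads each.

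The region on chromosome 5 from 37406992 to 37407032 held 5 cytosines in 41 bp and was the least empty of methylated reads before day 7. Each of its 4 earlier libraries had some, with 1 of 50 (2.00%) and 1 of 25 (4.00%) at day 0 and 1 of 40 (2.50%) and 2 of 49 (4.08%) at day 4. At day 7 it had 9 of 74 (12.2%) and 4 of 34 (11.8%). Its replicates stood closest together, at 12.0% ± 0.281 at day 7 against 3% ± 1.41 at day 0 (SD, n = 2 each). Cytosines 1 and 3 in order held all but 2 of its 13 methylated reads of day 7, and cytosine 4 had 0 in every library.

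On chromosome 16, 4 cytosines in 37 bp from 96413267 to 96413303 had 2 of 98 (2.04%) and 0 of 40 methylated reads at day 0. The 0 of 40 allows up to 7.5%. At day 4 they had 0 of 50 and 0 of 41, which allow up to 6% and 7.32%. At day 7 they had 5 of 41 (12.2%) and 2 of 20 (10.0%). The day 7 mean was 11.1% ± 1.55 against 1.02% ± 1.44 at day 0 (SD, n = 2 each). Here too replicate 4 had exactly the smallest read number and the smallest level that the rule admits.

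The longest and least dense of the 6 was on chromosome 2, from 169999718 to 169999830, with 6 cytosines in 113 bp. It had 6 of 167 (3.59%) and 1 of 83 methylated reads at day 0. At day 4 it had 1 of 96 (1.04%) and 0 of 56, which allows up to 5.36%. At day 7 it had 8 of 74 (10.8%) and 3 of 30 (10.0%). The mean was 10.4% ± 0.573 at day 7 against 2.40% ± 1.69 at day 0 (SD, n = 2 each). At day 0, 4 of its 6 cytosines had a methylated read in replicate 2. At day 7 the last cytosine alone held 5 of the 11 methylated reads.

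**Figure D2:**
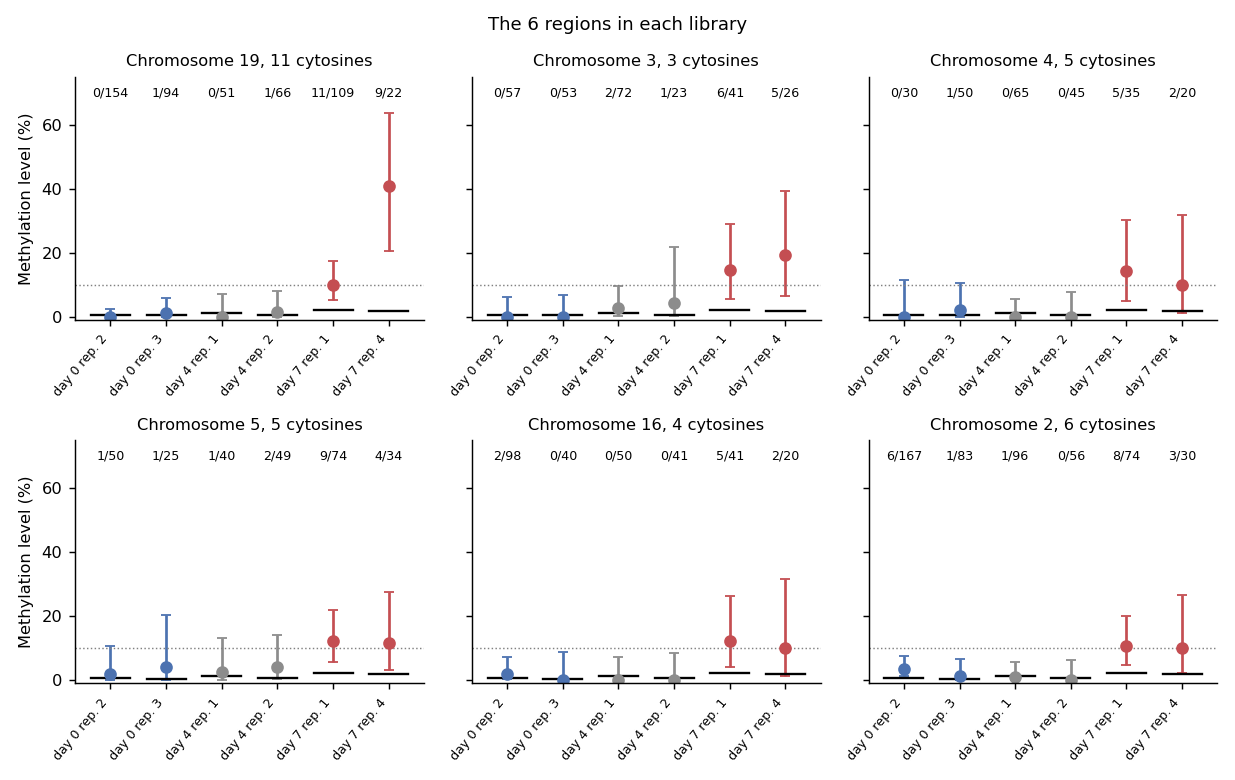
Methylation level (percent) of each of the 6 regions in the 6 libraries, with exact 95% binomial intervals as bars, methylated over all reads printed above each point, the 10% threshold as a dotted line and the mitochondrial level of the same library as a black dash. Levels at day 0 and day 4 are at most 4.35%, and at day 7 they run from 10.0% to 40.9%.

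The intervals were wide because the reads were few. Over the 6 regions, reads numbered 35 to 109 in day 7 replicate 1 and 20 to 34 in replicate 4, with 5 to 11 and 2 to 9 of them methylated. The exact 95% binomial (Clopper-Pearson) interval had its lower bound above the mitochondrial level of its library in 6 of the 6 regions in replicate 1 and in 4 of the 6 in replicate 4. The other 2, on chromosomes 4 and 16, had a lower bound of 1.23% in replicate 4, below the mitochondrial 1.76%. The rule had set these same day 7 levels at 10% or more. The counts of 6 and 4 therefore describe the read numbers and carry no test against the background. Among the day 0 libraries the lower bound was also above the mitochondrial level at the chromosome 2 region in replicate 2, at 1.33% against 0.547%. A read that spans several cytosines is counted at each, so the true intervals are wider: no cytosine of the 6 regions had more than 10 reads in replicate 4 or 15 in replicate 1.

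The spread of the methylated reads over the cytosines can be judged only roughly from so few reads. The 6 regions held 34 cytosines, of which 29 had a methylated read at day 7, 16 had one in both day 7 libraries, and 16 had one at day 0 or day 4. The cytosine with the most methylated reads at day 7 held 15% of those of its region on chromosome 19 and 42.9% to 63.6% in the other 5. The chromosome 19 region has 11 cytosines and the others have 3 to 6. Fewer cytosines make a larger share at 1 of them, and the share to be expected from the cytosine number was not computed. With that cytosine left out, 0 of the 6 regions stood at 10% or more in both day 7 libraries. The chromosome 19 region then stood at 9.09% in replicate 1, and the chromosome 3 region stood at 10.7% and 6.25%. Leaving out the highest cytosine lowers a level by construction. Of the 162 X regions of the same rule 150 (92.6%) stayed at 10% or more in both. The X regions lay further above the threshold, so the 2 counts are not like for like. Over the 230 low X regions the median was 21.6% and 20.7% in day 7 replicates 1 and 4, and 126 stood at 15% or more in both.

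**Figure D3:**
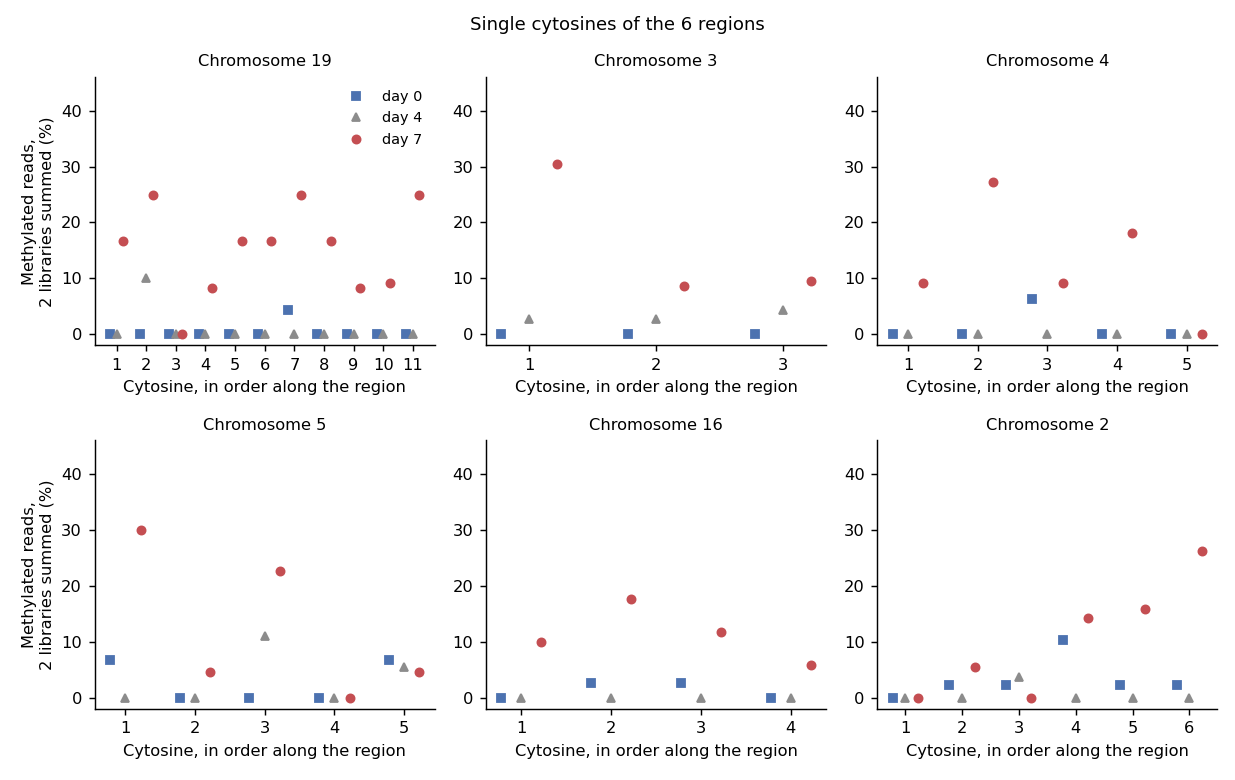
Percent of methylated reads, summed over the 2 libraries of a day, at each cytosine of the 6 regions in their order along the chromosome, with squares for day 0, triangles for day 4 and circles for day 7. At day 7 the methylated reads are spread over 10 of 11 cytosines in the chromosome 19 region, while the first cytosine leads in the chromosome 3 and chromosome 5 regions.

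All 6 regions were among the low regions with fewer summed reads, a number that depends on cytosine number as well as on depth. In day 7 replicate 4 they had 20 to 34 reads, with a median of 24, against a median of 52 over the other 14410 low regions, and 10390 of those had more than 34. The share of low regions at 10% or more in replicate 4 was 3.46% among those with 20 to 29 reads there, 1.85% with 30 to 39, 1.00% with 40 to 59, 0.204% with 60 to 99 and 0.0372% with 100 or more. In replicate 1 the shares over the same classes were 1.34%, 0.660%, 0.250%, 0.233% and 0.0372%. Of the 6 regions, 4 fell in the first class and 2 in the second. With a minimum of 40 reads in each library, 0 of 8919 low autosomal regions met the rule, and 81 of 108 X regions did.

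**Figure D4:**
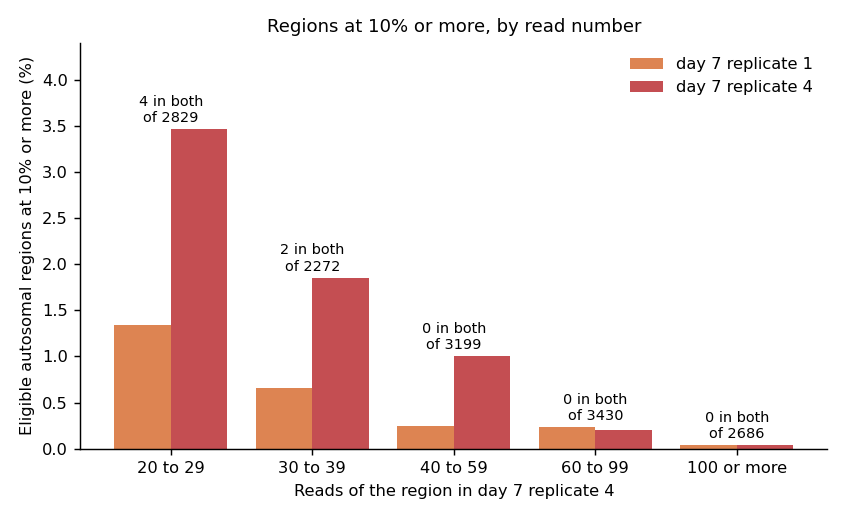
Share of low autosomal regions at 10% or more (percent) in day 7 replicate 1 (orange) and replicate 4 (red), by the region's reads in replicate 4; the number above each pair of bars is the count at 10% or more in both, out of all low regions in that class. The share falls from 3.46% to 0.0372% in replicate 4 with rising read number, and regions at 10% or more in both are found only below 40 reads.

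Read depth at the 6 regions in the day 7 libraries lay inside the range of the earlier ones. Reads per cytosine there, divided by reads per cytosine in the other low regions, came to 0.997 and 0.794 in the day 0 libraries, 0.660 and 0.759 in the day 4 libraries, and 0.830 and 0.797 in the day 7 libraries. The exact two-sided permutation p of the day 7 libraries was 1 against day 0 and 0.33 against day 4, where 0.33 is the smallest possible. In shape the regions were short, at a median of 44.5 bp against 140 bp in the other low regions, and held a median of 5 cytosines against 10. Reads were summed over cytosines, so at a given depth a region with few cytosines has few reads. The shape of the 4020 other low regions with up to 34 reads in replicate 4 was not compared. The median density of the 6 regions was 11.5 cytosines per 100 bp, with a range of 5.31 to 20.4, against 7.95 in the other low regions. It was 6.55 over the regions found without day 7 replicate 1 and 7.45 over those found without day 0 replicate 3.

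Cytosines beside the regions were not used by the rule. Within 500 bp of the 6 regions, 31 other cytosines were listed, around the regions of chromosomes 3, 4, 5 and 16, while those of chromosomes 2 and 19 had 0. Summed over the 31, the level was 3.49% and 2.89% in the day 0 libraries, 2.97% and 4.12% in the day 4 libraries, and 4.28% and 5.26% in the day 7 libraries. Group means came to 3.19% ± 0.428, 3.54% ± 0.815 and 4.77% ± 0.697 (SD, n = 2 each), with an exact two-sided permutation p of 0.33 for day 7 against either earlier day. Around the chromosome 3 region the 6 neighbours had levels of 3.28% and 5% in the day 0 libraries, 4.84% and 3.03% in those of day 4, and 2.99% and 0% in those of day 7, below the 4 earlier values but on 67 and 11 reads. Around the chromosome 4 region the 6 neighbours stood at 3.85% and 6.67%, 0% and 6.94%, and 8.96% and 6.06% over the same days. The 7 neighbours on chromosome 5 had 9.80% and 1.72%, then 9.09% and 4.76%, then 5.95% and 6.45% on days 0, 4 and 7. The 12 on chromosome 16 had 0.461% and 0.840%, then 1.15% and 2.02%, then 1.92% and 5.13%. The day 7 values thus overlapped the earlier ones around the chromosome 4, 5 and 16 regions. Within the chromosome 4 flank, the 3 cytosines that begin 188 bp beyond the region had 0% and 10.0%, then 0% and 13.3%, then 28.6% and 13.3%, the last pair on 21 and 15 reads. The 3 cytosines on the region's other side went the other way. They had 5% and 3.33%, then 0% and 2.38%, then 0% and 0%, the last pair on 46 and 18 reads.

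Just outside the rule, a stretch of chromosome 11 from 5906305 to 5906465 (7 cytosines) missed by its 9.90% (10 of 101 reads) in day 7 replicate 1. It had 18 of 25 reads methylated (72%) in replicate 4, with a methylated read at each of its 7 cytosines in both day 7 libraries. Those 25 reads were 3 or 4 at each cytosine. Whether a few sequenced reads carried all 18 cannot be told from these counts. The stretch had 0 of 126 and 0 of 84 at day 0, and 2 of 119 and 0 of 111 at day 4. A region on chromosome 16 from 7039017 to 7039053 had 9.68% and 14.3% at day 7, against 2.99% and 2.56% at day 0. Another, on chromosome 5 from 34066337 to 34066348, had 9.52% and 10.0% at day 7 on 21 and 20 reads, against 1.67% and 1.96% at day 0. Its lower value tied with those of 2 more regions, on chromosomes 10 and 14, which had 11.4% and 9.77% in replicate 1 and 9.52% each in replicate 4. Just inside stood the chromosome 4 and 16 regions and the chromosome 2 region, each at 10.0% in replicate 4.

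The rule used both contrasts of the fit over all regions, so nothing is read from the counts of the 6 in it. For day 7 against day 0, edgeR's likelihood ratio test with Benjamini-Hochberg adjustment called 461 of 31864 regions higher (1.45%), among them 245 of 31328 autosomal regions (0.782%), 216 of 469 X regions (46.1%) and 2 of the 6, those on chromosomes 19 and 3. Against day 4 it called 351 higher (1.10%), among them 142 autosomal (0.453%), 209 X regions (44.6%) and 2 of the 6, those on chromosomes 19 and 4. edgeR's quasi-likelihood test made fewer false calls on data simulated without a raised day 7 background. It called 202 of the 31864 regions higher against day 0 (0.634%), with 2 of the 6 among them. Against day 4 it called 201 higher (0.631%) and 0 of the 6, of which 5 had an unadjusted p below 0.05, as did 8.79% of all regions. Against day 0 the likelihood ratio test called 0 of the 6 and 0.532% of all regions without day 0 replicate 2, and 1 of the 6 and 0.719% without day 0 replicate 3. Against day 4 it called 0 of the 6 without either day 4 library (0.501% and 0.591% of all regions) and 1 without either day 7 library (0.849% and 0.992%).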

How the data were processed

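The deposited table lists 652716 cytosines. Per the file headers it gives, for each library, a methylated fraction and read counts of unmethylated and methylated cytosine. The fraction equals methylated over all reads, and levels were computed from the counts. Per the submitters' processing notes Bismark and Bowtie2 were used with mm9; the sources used here do not give versions, trimming, duplicate removal or strand handling. At each cytosine the libraries of a group had at least 10 reads in sum. Without molecular identifiers, intervals and limits (3 counts for a count of 0) cover counting error only.

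The rule for the 6 regions, the tests and the alternatives were chosen with earlier results of these data known. Named were all 6 regions and the 3 nearest the threshold outside it by their lower day 7 level; the third of these tied with 2 more and came first by chromosome number. The flank distance of 500 bp and the chromosome 7 region were chosen after values were seen. Tests used edgeR 4.0.16 (R 4.3.3), a negative binomial model of both counts with a term per library and a methylation term per group, all 6 libraries, no dispersion trend, adjusted p below 0.05 and no minimum difference, since a minimum of 20 points would leave out most of the 6. On data simulated for day 7 against day 0 over 32104 regions, 9 of 190 calls were false with negative binomial noise at the fitted dispersion but 104 of 283 with beta-binomial noise (overdispersion 0.01), against 0 of 166 and 1 of 158 in the quasi-likelihood test, so the likelihood ratio counts may hold false calls well beyond 5%. The simulated libraries shared 1 background level, and the overdispersion of 0.01 was set and not estimated. False calls from the higher day 7 background therefore could not appear in either test. Values per library were compared by exact permutation. No region was assigned to a gene and no sequence is shown, because an mm9 genome or annotation was not used here.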

Additional observations from a re-analysis of the deposited data

How the results depend on the processing

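The number of regions depended on the thresholds. It was 16 with a minimum of 10 reads and 0 with 40, 14 with neighbour gaps of up to 50 bp, 3 with a ceiling of 3% and 74 with one of 10%, and 0 with a day 7 floor of 15% or 20%. In summed reads of the 2 day 7 libraries, an alternative chosen after seeing the data, 41 regions reached 10%. Leaving 1 library out of the rule gave 6 to 183 regions, with 183 without day 7 replicate 1, 132 without day 7 replicate 4, 14 without day 0 replicate 3 and 11 without day 4 replicate 1. Without the most methylated cytosine of each region 6 regions met the rule, of which 0 were among the 6 described. With levels corrected for the mitochondrial level of the library, (level - background)/(1 - background), 4 did, of which 2 were. The median density was 3.29 cytosines per 100 bp with gaps of up to 200 bp and 19.2 with a ceiling of 3%. The relative read depth, 0.104 higher at day 7 than at day 4, changed sign with a minimum of 10 reads (-0.0742), gaps of 50 bp (-0.108) or 200 bp (-0.0919), a ceiling of 10% (-0.258) and summed day 7 reads (-0.0991), and ranged from -0.178 to 0.596 with 1 library left out. Against day 0 it was -0.0823, with -0.169 to 0.636 when 1 library was left out. The cause of these changes was not tested. The higher mitochondrial level at day 7 kept its sign in each alternative run.

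Of the 6 regions, edgeR called 1 against day 0 and 1 against day 4 with a minimum difference of 20 points (0.609% and 0.546% of all regions), 2 and 1 with autosomes alone (0.0990% and 0.0894%), and 2 and 0 in the quasi-likelihood test (0.634% and 0.631%). With autosomes alone it called 31 of 31328 regions higher against day 0 and 28 against day 4, where the fit with the X chromosome called 245 and 142 of them. With 1 library left out it called 0 to 2 of the 6 and 0.501% to 1.43% of all regions, and 2 to 6 of the 6 had an unadjusted p below 0.05, as did 10.5% to 15.4% of all regions. In 17 of 63 recalculations for the 9 named regions the difference between day 7 and day 0 moved by more than the spread between libraries; its sign is fixed by the choice of regions. No paired analysis was possible because the groups compared share at most 1 replicate number. Read number limits these results, since at 20 reads 2 methylated ones make 10%.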

Other observations

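Regions picked in 1 day 7 library can be read in the other, which did not choose them. The 70 low autosomal regions at 10% or more in replicate 1 had a median of 3.01% in replicate 4, against 1.24% over all 14416 low regions. The 180 picked in replicate 4 had a median of 2.89% in replicate 1, against 1.80% over all. With at least 40 reads in each library, 14 regions were picked in replicate 1, with a median of 4.17% in replicate 4 against 1.47% over all 8919, and 38 in replicate 4, with a median of 3.65% in replicate 1 against 1.80%. In each of the 4 readings the picked regions stood above all low regions in the library that did not pick them, but well below 10%. The 70 and the 180 include the 6 regions. Whether the picked regions also stood above the other low regions at day 0 and day 4 was not tested, so no gain by day 7 is read from these values. Regions are not replicates, and no test was run.

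Of the regions that reached 10% in the summed day 7 reads, 1 was named after its values were seen. It had the most reads in its shallowest library. Reads were summed over cytosines, so that rank rises with cytosine number as well as with depth. The region lies on chromosome 2 from 74584719 to 74584826, with 14 cytosines in 108 bp and at least 95 summed reads in each library. Its level was 2.63% and 1.69% in the day 0 libraries, 0.820% and 2.56% in the day 4 libraries, and 20.4% and 9.47% in the day 7 libraries, where 21 of 103 and 9 of 95 reads were methylated. It missed the rule only by its level in replicate 4.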
